A study of Mus musculus with 16 samples.

Results

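The solute carrier (SLC) genes described here were the protein-coding rows of the deposited count table with a gene name of the form Slc, a number, the letter a and a number, without Slc2a1, Slc40a1 and Slc11a1, and with a mean raw count of 30 or more over the 16 libraries. Membership was thus chosen by mean level. They numbered 174 of the 342 protein-coding rows with such a name; 3 were excluded by name and 165 lay under the mean count. Their level is therefore a description and was not tested. The members nearest to the limit were Slc25a47 (30 counts), Slc52a3 (32.4) and Slc25a18 (32.7), and the rows just outside it were Slc9a4 (29.3), Slc22a17 (26.0) and Slc36a2 (25.9). Of the members, 171 encode transporters or transporter subunits, and 3 match by name only: Slc9a3r1, which encodes a scaffold protein, Slc7a6os and Slc4a1ap. Transporters that carry other names, such as the Slco genes and the Slc35 subfamilies with letters after a, are outside this pattern.

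RNA was measured in macrophages grown from the marrow of the tibia. The donors were wild-type C57BL/6 mice aged 2 to 3 months. The marrow cells were held in medium with 15% serum and CSF-1, the growth factor that macrophages need, at 12 ng/ml for 24 h and then at 120 ng/ml for 48 h, and were passaged once before treatment. The 16 libraries formed 4 groups of 4. These were fibronectin-coated dishes (10 µg/ml) with anti-ITGAV neutralizing antibody (fibronectin_antiITGAV), fibronectin-coated dishes with IgG (fibronectin_IgG), uncoated dishes with anti-ITGAV (uncoated_antiITGAV) and uncoated dishes with IgG (uncoated_IgG). Each antibody was given at 10 µg/ml for 24 h. ITGAV is the αV integrin subunit, and fibronectin is a matrix protein that integrins bind. The labels give neither the sex nor the number of the mice, and do not say that replicates were separate cultures or animals. The p-values therefore reflect the variation among these libraries alone, which could be technical.

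SLC proteins move nutrients, ions, metals and metabolites across the plasma membrane and the membranes of mitochondria, lysosomes and other organelles. In macrophages they take up arginine, glutamine, glucose and phosphate, release lactate, recycle iron and heme from engulfed cells, and empty lysosomes of the products of digestion. Several amino acid exchangers of the SLC7 family work only as heterodimers with the heavy chain encoded by Slc3a2, and the lactate carriers of the SLC16 family need the chaperone encoded by Bsg.

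Total counts per library ranged from 27995035 to 43413650, and the members took 1.21% to 1.34% of them. The macrophage markers Lyz2, Csf1r, Adgre1, Cd68, Itgam, Fcgr1, Mertk and Cd14 summed to 27350 to 34446 CPM (counts scaled to a common library size, on totals adjusted by edgeR's TMM factors) in fibronectin_antiITGAV, 26333 to 33080 CPM in fibronectin_IgG, 27390 to 32294 CPM in uncoated_antiITGAV and 27697 to 30694 CPM in uncoated_IgG, and of these 8 genes Adgre1 and Mertk fell on fibronectin. Erythroid markers summed to at most 0.683 CPM in any library, and Hba-a2 was at 0. The library fibronectin_antiITGAV 3 stood apart: its mitochondrial share of counts was 3.67%, against 1.30% to 1.60% elsewhere, and its counts followed GC content most strongly (Spearman's rho across genes -0.70, genes not being independent replicates). It was the highest or the lowest of the 16 libraries for 94 of the 174 members (54.0%), so counts of called members for the coating are also given without it.

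Mitochondrial carriers, amino acid transporters and metal transporters made up most of the SLC message per gene length. In FPKM (fragments per kilobase of gene, scaled to library size, which allows levels of different genes to be compared) the members ranged from 0.242 to 220 with a median of 5.78 and quartiles of 2.41 and 13.6, and 28 members lay under 1 FPKM. The 15 members with the highest FPKM held 52% of the members' summed FPKM. The 39 mitochondrial carriers held 29.0% of that sum, the 26 transporters of amino acids, peptides and amines 24.8%, and the 25 of metals and heme 17.4%. The summed FPKM of all members was 2661 ± 103 in fibronectin_antiITGAV, 2731 ± 179 in fibronectin_IgG, 2724 ± 115 in uncoated_antiITGAV and 2642 ± 84.8 in uncoated_IgG (SD, n = 4 each). Each difference between groups was smaller than the larger SD of the pair compared.

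The member with the highest level was Slc25a5, which encodes an ADP/ATP carrier of the inner mitochondrial membrane, at 223 ± 13.3 FPKM in fibronectin_antiITGAV, 223 ± 25.1 in fibronectin_IgG, 219 ± 16.9 in uncoated_antiITGAV and 215 ± 17.0 in uncoated_IgG (SD, n = 4 each). Genes of this family have near-identical pseudogene copies, and the labels do not say how the counting shared reads among copies, so its level is uncertain. Next came Slc48a1 (188 FPKM over the 16 libraries), which exports heme from the phagolysosome, and Slc6a6 (177 FPKM), which takes up taurine. Slc7a8 (106 FPKM) and its heavy chain partner Slc3a2 (89.0 FPKM) followed. The other members of the first 15 were the scaffold gene Slc9a3r1 (88.0 FPKM), the mitochondrial phosphate carrier gene Slc25a3 (83.8), the amino acid transporter gene Slc43a2 (70.2), the ADP/ATP carrier gene Slc25a4 (67.2), the zinc importer gene Slc39a1 (65.9), Slc37a2 (60.8), which encodes a sugar phosphate transporter of the endoplasmic reticulum, the oxoglutarate carrier gene Slc25a11 (56.3), Slc25a39 (45.5), which brings glutathione into mitochondria, the ATP-Mg/phosphate carrier gene Slc25a24 (41.5) and the copper importer gene Slc31a1 (40.7). Neighbours in this order, such as Slc3a2 and Slc9a3r1 or Slc25a4 and Slc39a1, differed by less than their spread over libraries.

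**Figure D1:**
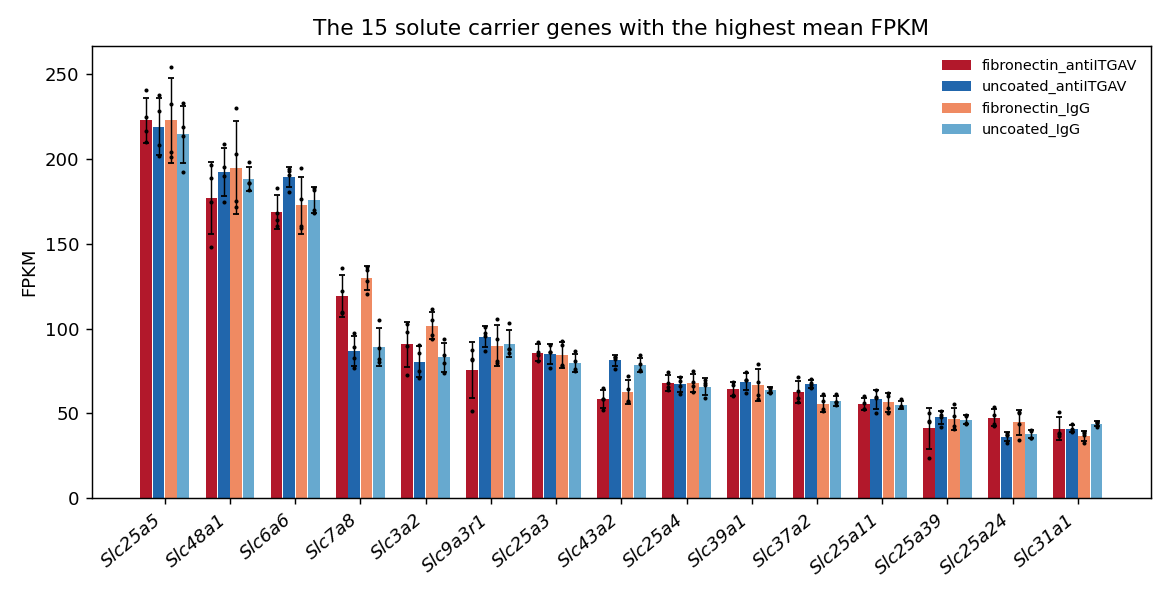
Deposited FPKM of the 15 members with the highest mean, by group; bars are means, error bars SD over 4 libraries and points the libraries. Slc25a5, Slc48a1 and Slc6a6 stand far above the rest, and of these 15 genes Slc7a8, Slc43a2 and Slc25a24 are those that passed the test for coating averaged over antibodies.

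The question of the coating is what fibronectin under the cells does to transporter RNA. Averaged over both antibodies, 34 of the 174 members (19.5%) passed edgeR's quasi-likelihood test at an adjusted p under 0.05 (Benjamini-Hochberg over the 15469 genes tested), while 11.8% of all tested genes did. Of these, 18 rose and 16 fell on fibronectin (6.58% of all tested genes rose and 5.26% fell). Changes were moderate: the called members differed by 0.21 to 0.87 on the log2 scale when higher and by -0.23 to -1.26 when lower, and 2 of 174 changed by 2-fold or more. The median log2 change of the members was 0.04, against 0.00 for all tested genes. For 20 members (11.5%) the 8 fibronectin libraries did not overlap the 8 uncoated ones, against 3.82% of all tested genes. Without the library fibronectin_antiITGAV 3, 28 members rose and 19 fell (47, of which 33 were among the 34), and 26 (14.9%) did not overlap, against 5.51% of all tested genes. Of the 15765 genes tested in that fit 1404 rose and 1064 fell. With an offset for GC content 34 rose and 28 fell (62, which included all 34), while the calls among all tested genes went from 1831 to 3391. With a mean count limit of 10 the same 34 were called among 202 genes, and with a limit of 100, 30 among 152. The shares of all tested genes, here and below, include rows under the members' limit of 30 counts. Members and tested genes thus differ in level, and the part of level in the higher shares of members was not tested. In bulk RNA fewer cells of a type and less RNA per cell cannot be told apart.

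The coating was also compared within each antibody, and these comparisons share no library. Both took their estimate of spread from 1 fit to all 16 libraries, so their calls are not independent. With anti-ITGAV 13 members rose and 10 fell (23 of 174, 13.2%, against 5.66% of all tested genes, with 2.84% rising and 2.83% falling). Without fibronectin_antiITGAV 3 the counts were 18 and 11, against 479 and 493 of 15765 tested genes. With IgG 12 rose and 6 fell (18 of 174, 10.3%, against 3.79% of all tested genes, with 2.37% rising and 1.42% falling). This count moved with single libraries, and so did the calls with IgG among all tested genes, which were 586 with every library. It was 38 (23 rose and 15 fell) without fibronectin_antiITGAV 3, which belongs to neither group compared, against 1325 of all tested genes. It was 11 without uncoated_IgG 1 or without uncoated_IgG 2, against 253 and 273 of all tested genes. The GC offset gave 47 members with anti-ITGAV and 42 with IgG, against 1943 and 1711 of all tested genes (876 and 586 without the offset). A fit of only the 8 anti-ITGAV libraries called 9 members and 251 of all tested genes. With only the 8 IgG libraries 23 members and 831 genes were called. In 39 members (22.4%) the 4 fibronectin libraries did not overlap the 4 uncoated ones with anti-ITGAV, against 14.1% of all tested genes, and with IgG in 43 (24.7%), against 13.1%. Without fibronectin_antiITGAV 3 the count with anti-ITGAV was 57 (32.8%), against 19.4%.

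Members called with one antibody moved the same way with the other, with a single exception. Of the 13 that rose with anti-ITGAV, 13 had a positive log2 change with IgG and 9 were called there. Of the 10 that fell with anti-ITGAV, 9 had a negative change with IgG and 5 were called there, and the exception was Slc37a4, whose call with anti-ITGAV was lost in 14 of the 16 fits that left out 1 library. All 12 that rose and all 6 that fell with IgG had the same sign with anti-ITGAV. Over all 174 members the sign agreed for 115 (66.1%), against 57.6% of all tested genes. The agreement of called genes outside the members was not computed, so these counts are not shown to be particular to the members. The 14 members called with both antibodies were Slc7a1, Slc7a6, Slc7a8, Slc16a10, Slc20a1, Slc25a13, Slc38a2, Slc39a6 and Slc39a14, which rose, and Slc9a9, Slc16a9, Slc26a11, Slc29a3 and Slc46a3, which fell. Of these, Slc7a1, Slc9a9, Slc20a1, Slc26a11, Slc38a2, Slc39a14 and Slc46a3 kept both calls in all 16 fits that left out 1 library. With IgG the call was kept in 2 of these fits for Slc29a3, 7 for Slc16a10, 8 for Slc25a13, 10 for Slc7a6 and 14 for Slc39a6, and with anti-ITGAV in 10 for Slc7a6, 11 for Slc16a10 and Slc29a3, 13 for Slc7a8 and 14 for Slc16a9.

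**Figure D2:**
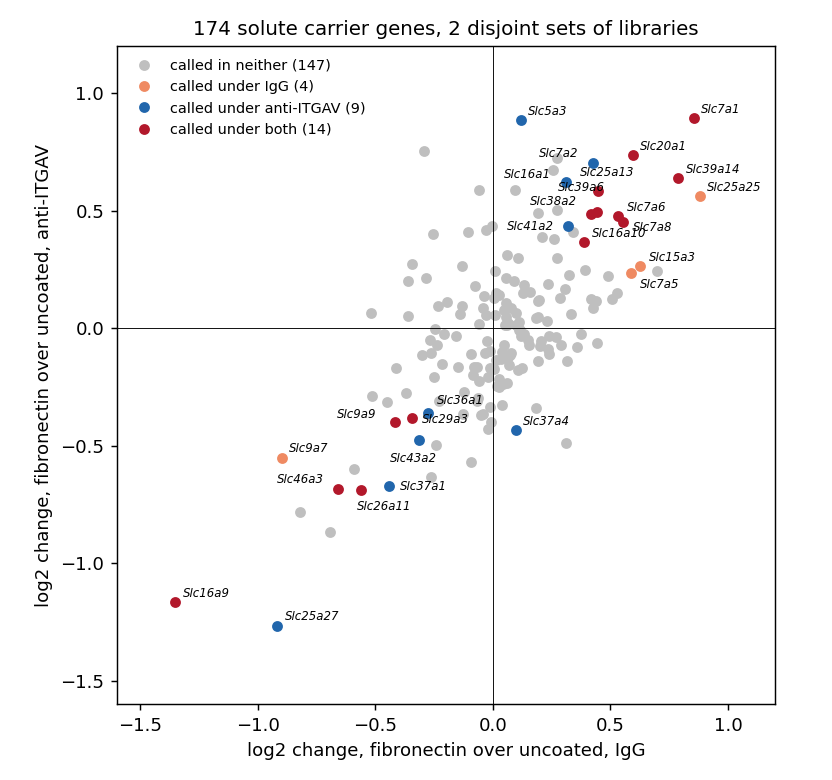
Log2 change on fibronectin with IgG (x axis) and with anti-ITGAV (y axis) for the 174 members; each point is a gene, coloured by the comparison in which it passed an adjusted p under 0.05. The called genes lie in the upper right and lower left of the plot, except Slc37a4, and the axes share no library.

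Promoter windows are shown for 4 of these 14 members, chosen after values and matches were seen, as examples of the letters near the start of genes that rose together (Slc7a1, Slc38a2 and Slc20a1) and of 1 that fell (Slc9a9). They are the 250 bases before the gene start in RefSeq (GRCm38.p6), 5′ to 3′ on the gene's strand, with capitals marking the motif matches named here, on either strand. Windows existed for 130 members, among them 12 that rose and 13 that fell. Slc7a1 (chr5:148399905-148400154, minus strand) holds an AP-1 motif (TGANTCA) 123 bases before the start and an antioxidant response element core (TGACNNNGC) 11 bases before it. Slc38a2 (chr15:96699729-96699978, minus strand) holds that core 27 bases before the start. Slc20a1 (chr2:129198523-129198772, plus strand) holds E-boxes (CACGTG) at 175 and 22 bases, and Slc9a9 (chr9:94669642-94669891, plus strand), which fell, holds an AP-1 motif at 96 bases and the C/EBP-ATF motif TGATGNAA at 69 bases.
Slc7a1: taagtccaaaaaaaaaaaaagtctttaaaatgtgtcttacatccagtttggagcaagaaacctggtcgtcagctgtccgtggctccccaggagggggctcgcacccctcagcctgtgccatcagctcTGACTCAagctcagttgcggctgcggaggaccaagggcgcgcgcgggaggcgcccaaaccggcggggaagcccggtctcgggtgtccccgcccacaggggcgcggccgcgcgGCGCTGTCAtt
Slc38a2: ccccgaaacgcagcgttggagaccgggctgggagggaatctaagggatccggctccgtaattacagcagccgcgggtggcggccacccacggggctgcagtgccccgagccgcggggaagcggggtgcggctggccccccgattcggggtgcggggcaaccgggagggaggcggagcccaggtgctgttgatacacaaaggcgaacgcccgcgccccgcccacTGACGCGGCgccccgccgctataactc
Slc20a1: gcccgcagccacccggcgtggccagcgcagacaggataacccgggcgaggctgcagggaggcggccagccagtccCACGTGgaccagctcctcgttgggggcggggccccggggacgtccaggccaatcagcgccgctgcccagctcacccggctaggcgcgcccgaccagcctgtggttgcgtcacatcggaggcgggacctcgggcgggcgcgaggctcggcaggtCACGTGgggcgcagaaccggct
Slc9a9: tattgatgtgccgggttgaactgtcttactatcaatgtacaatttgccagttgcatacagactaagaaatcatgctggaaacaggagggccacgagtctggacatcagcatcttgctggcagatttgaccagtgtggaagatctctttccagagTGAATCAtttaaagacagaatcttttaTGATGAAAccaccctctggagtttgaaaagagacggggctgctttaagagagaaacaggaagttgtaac

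Motif matches are a description of these letters and not of binding. The antioxidant response element core was in 5 of 12 windows of members that rose (41.7%), in 1 of 13 of members that fell (7.69%) and in 12.1% of the 10346 windows of tested genes. The E-box was in 3 of 12 (25.0%), 3 of 13 (23.1%) and 8.46% of these sets, and AP-1 in 2 of 12 (16.7%), 1 of 13 (7.69%) and 4.36%. TGATGNAA was in 0 of 12, 1 of 13 (7.69%) and 2.07%. The hypoxia response element core ACGTG, which every E-box contains, was in 5 of 12 (41.7%), 3 of 13 (23.1%) and 21.6%, and the metal response element core TGCNCNC in 7 of 12 (58.3%), 7 of 13 (53.8%) and 51.6%. In the 130 windows of all members the 6 motifs, in the order given, were in 16.2%, 13.1%, 8.46%, 3.08%, 23.1% and 47.7%. Slc39a14 had no window. Among members that fell, the RefSeq start lay 14521 bases from the deposited gene start for Slc41a3, whose window holds an E-box. For Slc8a1 it lay 88780 bases away. The motif counts are small and no test was made on them.

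Amino acid transporters held the largest number of called members: of 26, 8 rose and 3 fell (median log2 change 0.14), and 10 rose and 4 fell without fibronectin_antiITGAV 3. Among all tested genes 6.58% rose and 5.26% fell with all 16 libraries, and without that library 1404 and 1064 of 15765 did. The 8 that rose act at the plasma membrane or in the endolysosome and include the cationic amino acid transporter genes Slc7a1 and Slc7a2. The 3 that fell were Slc43a2, Slc36a1 and Slc38a9. Slc7a1 (chromosome 5, 148327410 to 148399904, minus strand, GRCm38), the arginine and lysine importer whose printed promoter holds the AP-1 and antioxidant response element letters, had 48.5, 56.1, 53.1 and 57.6 CPM in fibronectin_antiITGAV against 33.5, 25.0, 31.7 and 25.9 CPM in uncoated_antiITGAV. With IgG it had 54.2, 58.1, 50.6 and 54.3 CPM on fibronectin against 27.3, 29.2, 26.2 and 37.1 CPM on uncoated dishes. All 8 fibronectin libraries were above all 8 uncoated ones, and the averaged log2 difference was 0.87 ± 0.09 (SE, edgeR adjusted p = 4.19e-06). Slc7a2, the arginine importer known from activated macrophages, ranged over 14.0 to 26.2 CPM (median 21.3) on fibronectin and 11.2 to 16.5 CPM (median 13.1) on uncoated dishes, ranges that overlapped, with a log2 difference of 0.57 ± 0.12 (SE, edgeR adjusted p = 0.00468).

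Slc38a2 (chromosome 15, 96687392 to 96699730, minus strand) encodes a sodium-coupled importer of small neutral amino acids. It had 180.4, 182, 219 and 172 CPM in fibronectin_antiITGAV against 138, 137, 131 and 132 CPM in uncoated_antiITGAV, and 188, 161, 171 and 181 CPM in fibronectin_IgG against 129, 132, 138 and 126 CPM in uncoated_IgG. The groups did not overlap with either antibody, and the averaged log2 difference was 0.45 ± 0.06 (SE, edgeR adjusted p = 8.73e-05). Slc1a5, an exchanger of neutral amino acids that carries glutamine, changed less, by 0.21 ± 0.07 (SE, edgeR adjusted p = 0.045), and lost its call in 13 of the 16 fits that left out 1 library.

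Of the light chains that pair with Slc3a2, Slc7a8, Slc7a6 and Slc7a5 rose, while Slc7a7 and Slc7a11, like Slc3a2 itself, did not pass the test. Slc7a8 (chromosome 14, 54722209 to 54781946, minus strand), which exchanges neutral amino acids, had 563, 615, 548 and 687 CPM in fibronectin_antiITGAV against 502, 417, 455 and 389 CPM in uncoated_antiITGAV. With IgG it had 618, 683, 693 and 658 CPM on fibronectin against 406, 416, 446 and 536 CPM on uncoated dishes, so that the lowest fibronectin library stood above the highest uncoated one (averaged log2 change 0.50 ± 0.07, SE, edgeR adjusted p = 0.000268). Slc7a6, which exchanges cationic for neutral amino acids, ranged over 18.5 to 21.8 CPM (median 19.5) on fibronectin and 11.2 to 17.4 CPM (median 14.2) on uncoated dishes without overlap (log2 change 0.50). Slc7a5, the leucine exchanger, ranged over 15.5 to 28.0 CPM (median 22.7) on fibronectin and 14.2 to 21.3 CPM (median 16.1) on uncoated dishes, and those ranges overlapped (log2 change 0.41, edgeR adjusted p = 0.0196, over 0.05 without uncoated_IgG 1 or without fibronectin_antiITGAV 4). Slc7a7, an exchanger of cationic for neutral amino acids named after its values were seen, ranged over 31.0 to 40.7 CPM (median 34.8) on fibronectin and 32.4 to 43.7 CPM (median 38.7) on uncoated dishes with overlap (log2 change -0.14, edgeR adjusted p = 0.268). Slc7a11, the cystine importer, gave a log2 difference of 0.46 (edgeR adjusted p = 0.0671). Slc3a2 gave a log2 difference of 0.24 (edgeR adjusted p = 0.0742), which fell under 0.05 without fibronectin_antiITGAV 3 or without uncoated_IgG 4.

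Slc16a10, a carrier of aromatic amino acids that belongs to the monocarboxylate family and was counted there, ranged over 188 to 256 CPM (median 199.8) on fibronectin and 143 to 187 CPM (median 157) on uncoated dishes without overlap, and its log2 change was 0.38. The amino acid transporter gene with the largest level among those that fell was Slc43a2 (chromosome 11, 75531694 to 75577575, plus strand), which carries branched-chain amino acids, methionine and phenylalanine. It had 600.0, 660.4, 521 and 597 CPM in fibronectin_antiITGAV against 844, 842, 855 and 773 CPM in uncoated_antiITGAV, and 594, 734, 657 and 581 CPM in fibronectin_IgG against 805, 767, 759 and 864 CPM in uncoated_IgG. Every fibronectin library lay below every uncoated one, with an averaged log2 change of -0.40 ± 0.06 (SE, edgeR adjusted p = 0.000547). Of its exonic bases 9.18% are shared with the opposite-strand gene Gm45606 (log2 change -0.21, edgeR adjusted p = 0.377). The labels do not say whether the counting used strand. Slc6a6 gave a log2 difference of -0.09 (edgeR adjusted p = 0.343).

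**Figure D3:**
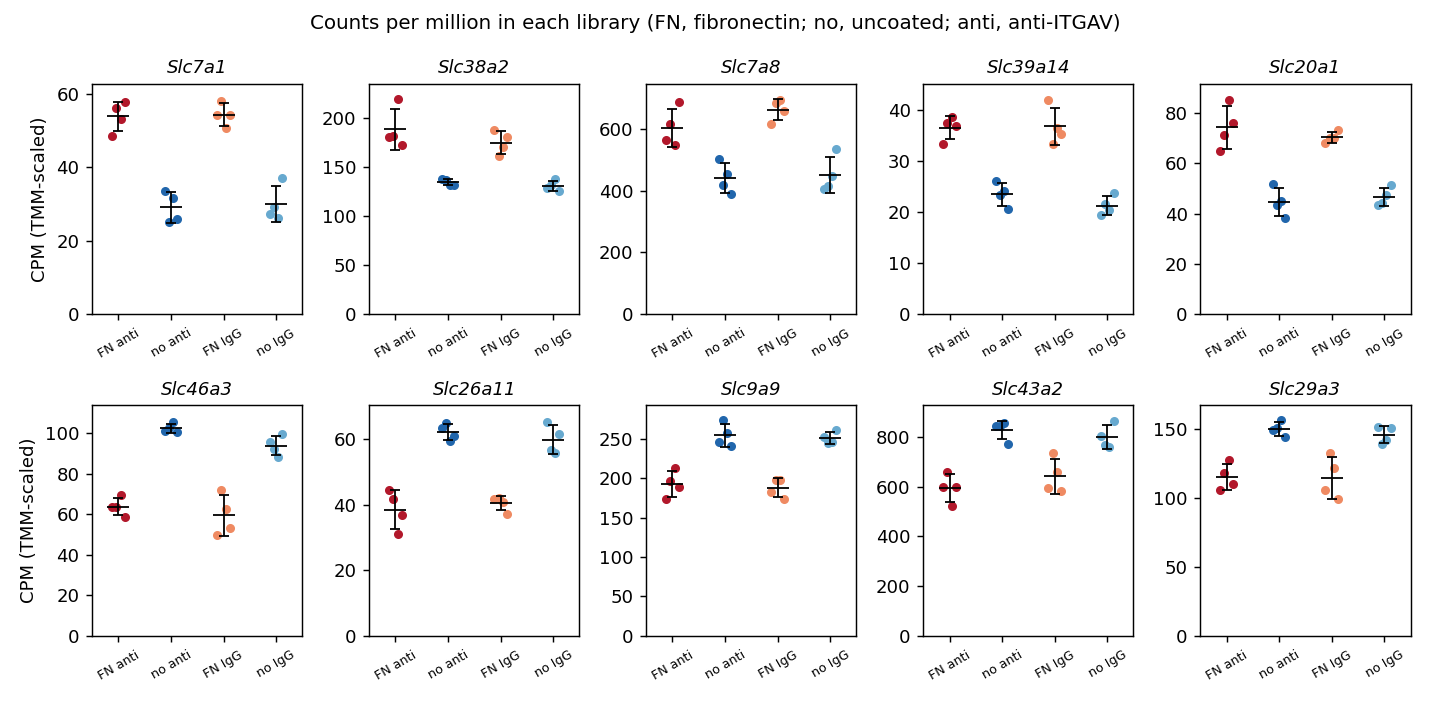
TMM-scaled CPM in each library for 5 members that rose and 5 that fell on fibronectin; points are libraries, horizontal marks means and error bars SD (n = 4). In every panel the 8 fibronectin libraries (FN) do not overlap the 8 uncoated ones (no), and none of these 10 genes passed the test for the antibody.

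The zinc, iron and manganese importer gene Slc39a14 (chromosome 14, 70303469 to 70351425, minus strand) led the metal transporters, of which 3 of 25 rose and 2 fell (median log2 change 0.02, with 6.58% of all tested genes rising and 5.26% falling). Without fibronectin_antiITGAV 3, 3 rose and 3 fell, against 1404 and 1064 of 15765 tested genes. Slc39a14 had 33.4, 37.5, 38.8 and 36.8 CPM in fibronectin_antiITGAV against 26.1, 23.3, 24.1 and 20.6 CPM in uncoated_antiITGAV. With IgG it had 41.9, 33.5, 36.5 and 35.4 CPM on fibronectin against 19.5, 21.6, 20.3 and 23.8 CPM on uncoated dishes, again with no overlap, and the averaged log2 difference was 0.71 ± 0.07 (SE, edgeR adjusted p = 6.45e-06). The zinc importer gene Slc39a6 (log2 change 0.47) and the magnesium transporter gene Slc41a2 (0.38) also rose. The magnesium transporter gene Slc41a3 (-0.27) and the zinc importer gene Slc39a12 (-0.80) fell. The heme exporter gene Slc48a1 (-0.03, and 0.01 without fibronectin_antiITGAV 3), the iron importer gene Slc11a2 (0.05), the copper importer gene Slc31a1 (-0.12) and the zinc exporter gene Slc30a1 (-0.09) did not pass, with edgeR adjusted p-values of 0.856, 0.728, 0.297 and 0.456.

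Slc20a1 (chromosome 2, 129198764 to 129211616, plus strand), the sodium-phosphate cotransporter that feeds phosphate into most cells and whose printed promoter holds a pair of E-boxes, had 65.0, 71.3, 85.1 and 76.1 CPM in fibronectin_antiITGAV against 51.9, 43.3, 45.0 and 38.3 CPM in uncoated_antiITGAV, and 68.1, 70.2, 70.0 and 73.1 CPM in fibronectin_IgG against 43.4, 44.1, 47.2 and 51.4 CPM in uncoated_IgG. The coatings did not overlap, and the averaged log2 difference was 0.67 ± 0.07 (SE, edgeR adjusted p = 1.56e-05). Opposite-strand genes share part of its exonic bases, both at far lower counts. They are Gm4430 (5.02%, log2 change 0.60, edgeR adjusted p = 0.0241) and 9830144P21Rik (8.10%, log2 change 0.40, edgeR adjusted p = 0.238). The potassium-chloride cotransporter gene Slc12a4 was the other ion transporter that rose (0.36, edgeR adjusted p = 0.0397), and its call was lost in 13 of the 16 fits that left out 1 library. Of the 23 transporters of inorganic ions and protons 5 fell: the exchanger genes Slc9a9 and Slc9a7, Slc26a11, the sodium-calcium exchanger gene Slc8a1 (-0.38) and Slc12a9 (-0.45, edgeR adjusted p = 0.0499). The call of Slc12a9 was lost in 12 of these fits and that of Slc41a3 in 10. Of all tested genes 6.58% rose and 5.26% fell with all 16 libraries. Without fibronectin_antiITGAV 3, 4 ion transporters rose and 5 fell, against 1404 and 1064 of 15765 tested genes.

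**Figure D4:**
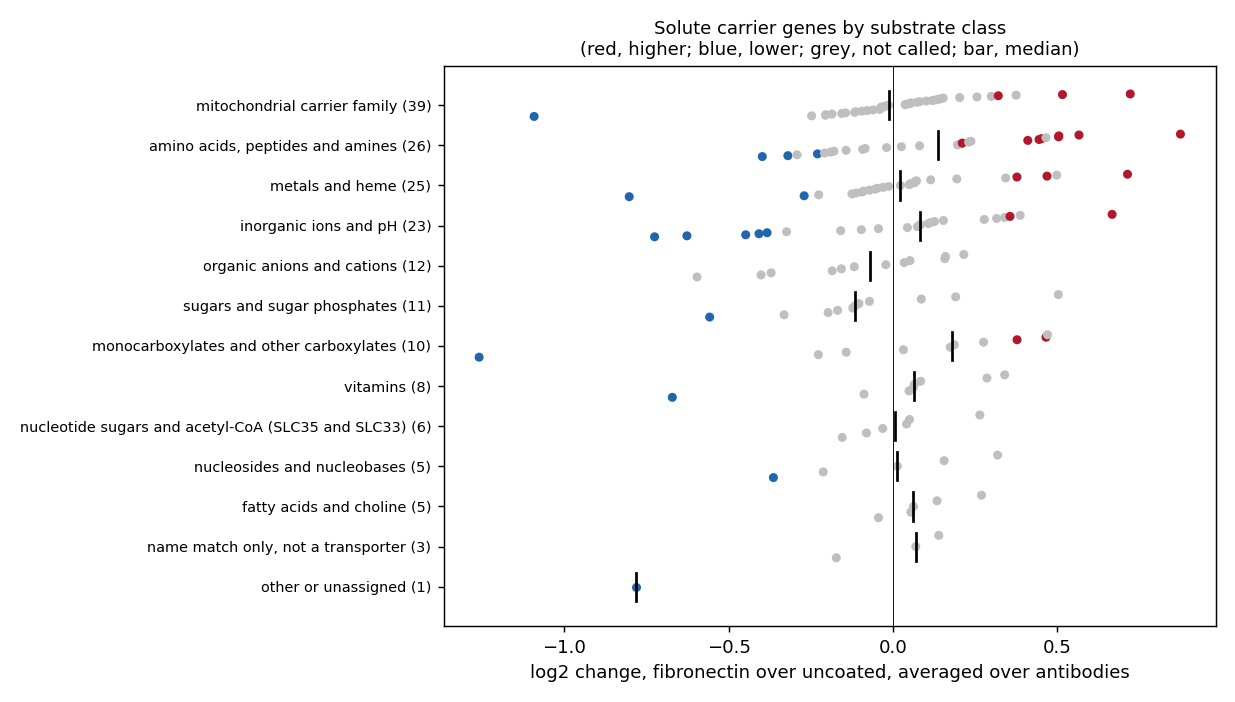
Averaged log2 change on fibronectin for the 174 members by substrate class, with the number of genes in each class; each point is a gene and bars mark class medians. The 26 amino acid transporters hold 8 of the 18 genes that rose, and the 23 ion transporters 5 of the 16 that fell. Of all tested genes 6.58% rose and 5.26% fell.

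Carriers of lactate and of the mitochondrial inner membrane gave a mixed picture. The lactate carrier gene Slc16a1 ranged over 15.2 to 24.4 CPM (median 17.5) on fibronectin and 11.7 to 15.1 CPM (median 13.7) on uncoated dishes without overlap (log2 change 0.47 ± 0.09, SE, edgeR adjusted p = 0.00203). The lactate exporter gene Slc16a3 gave a log2 difference of 0.47 (edgeR adjusted p = 0.0618), and it had 84.2, 96.4, 37.1 and 106 CPM in fibronectin_antiITGAV, where library 3 lay far below the others, against 77.0, 63.2, 76.4 and 57.3 CPM in uncoated_antiITGAV. With IgG its libraries had 86.9, 109, 103 and 97.2 CPM on fibronectin against 54.0, 60.9, 57.1 and 72.0 CPM on uncoated dishes, and without library 3 of fibronectin_antiITGAV it passed the averaged test (log2 change 0.59). Of the 39 mitochondrial carriers 3 rose and 1 fell, against 6.58% and 5.26% of all tested genes. Without fibronectin_antiITGAV 3 the counts were 5 and 2, against 1404 and 1064 of 15765 tested genes. The 3 that rose with all libraries were Slc25a25 (0.72) and Slc25a24 (0.32), which exchange ATP-Mg for phosphate, and Slc25a13 (0.52), the aspartate-glutamate carrier. The single carrier that fell was the uncoupling protein family gene Slc25a27 (-1.09). The median of the class was -0.01, and the abundant Slc25a5 (0.04) and the citrate carrier gene Slc25a1 (-0.14) did not pass (edgeR adjusted p = 0.749 and 0.417).

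Several transporters of lysosomes and endosomes fell on fibronectin. Slc46a3 (chromosome 5, 147878437 to 147894815, minus strand), a lysosomal transporter, had 63.9, 63.7, 69.4 and 58.6 CPM in fibronectin_antiITGAV against 101, 103, 106 and 101 CPM in uncoated_antiITGAV, and 49.6, 72.2, 62.8 and 53.4 CPM in fibronectin_IgG against 95.8, 92.3, 88.4 and 99.5 CPM in uncoated_IgG. All fibronectin libraries were lower than all uncoated ones (averaged log2 change -0.67 ± 0.07, SE, edgeR adjusted p = 1.36e-05). Slc26a11 (chromosome 11, 119355557 to 119381079, plus strand), a lysosomal anion transporter that carries sulfate, had 44.4, 41.7, 31.0 and 37.0 CPM in fibronectin_antiITGAV against 63.5, 64.9, 59.4 and 60.9 CPM in uncoated_antiITGAV. With IgG it had 41.8, 42.0, 40.8 and 37.3 CPM on fibronectin against 65.2, 56.7, 55.7 and 61.5 CPM on uncoated dishes, with no overlap (averaged log2 change -0.63 ± 0.07, SE, edgeR adjusted p = 2.77e-05).

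Slc9a9 (chromosome 9, 94669909 to 95230445, plus strand), the endosomal proton exchanger, had 173, 197, 212 and 189 CPM in fibronectin_antiITGAV against 246, 273, 257 and 241 CPM in uncoated_antiITGAV, and 182, 198, 198 and 174 CPM in fibronectin_IgG against 252, 244, 246 and 260.4 CPM in uncoated_IgG. Its fibronectin libraries all lay below its uncoated ones (averaged log2 change -0.41 ± 0.06, SE, edgeR adjusted p = 0.00014). Slc29a3, the lysosomal nucleoside exporter, ranged over 99.1 to 133 CPM (median 114) on fibronectin and 139.5 to 157 CPM (median 150.3) on uncoated dishes without overlap (log2 change -0.36 ± 0.07, SE, edgeR adjusted p = 0.00133). Slc36a1, which exports small amino acids from the lysosome with protons, ranged over 95.4 to 128 CPM (median 117) on fibronectin and 136 to 152 CPM (median 144) on uncoated dishes without overlap (log2 change -0.32). Slc38a9, the lysosomal arginine sensor upstream of mTORC1, gave a log2 difference of -0.23 with ranges that overlapped, an edgeR adjusted p of 0.0409, and no call in 13 of the 16 fits that left out 1 library. Slc38a9, Slc41a3 and Slc12a4 were named after their values were seen.

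Of the lysosomal peptide and histidine transporters, Slc15a3 rose (log2 change 0.44 ± 0.10, SE, edgeR adjusted p = 0.00701), and 28.1% of its exonic bases are shared with the opposite-strand gene Tmem132a (log2 change 0.24, edgeR adjusted p = 0.261). Slc15a4 gave a log2 difference of -0.18 (edgeR adjusted p = 0.116). A list of 17 members that reside in lysosomes or endosomes, drawn up after their values were seen and so given no test, held 1 that rose (Slc15a3) and 6 that fell (Slc9a9, Slc26a11, Slc29a3, Slc36a1, Slc38a9 and Slc46a3), with a median log2 change of -0.18 against 0.00 for all tested genes, of which 6.58% rose and 5.26% fell. With IgG 1 rose and 4 fell (median -0.09), against 2.37% and 1.42% of all tested genes. With anti-ITGAV 0 rose and 5 fell (median -0.21), against 2.84% and 2.83%. Averaged and without fibronectin_antiITGAV 3, 2 rose and 7 fell (median -0.15), and of the 15765 genes tested in that fit 1404 rose and 1064 fell. The Golgi exchanger gene Slc9a7 (log2 change -0.72) and Slc37a1 (-0.56), which encodes a sugar phosphate transporter of the endoplasmic reticulum, also fell. Of the 11 transporters of sugars and sugar phosphates Slc37a1 was the 1 called, and without fibronectin_antiITGAV 3, 1 rose and 1 fell. The glucose transporter genes Slc2a3 (0.09) and Slc2a6 (0.19) and the abundant Slc37a2 (-0.07) did not pass, with edgeR adjusted p-values of 0.473, 0.555 and 0.511.

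The largest falls in fold were in genes of very low level. Slc16a9, of the monocarboxylate transporter family, had 0.720, 0.928, 1.21 and 0.936 CPM in fibronectin_antiITGAV against 1.85, 1.95, 2.51 and 2.22 CPM in uncoated_antiITGAV, and 0.640, 1.10, 1.33 and 0.671 CPM in fibronectin_IgG against 2.37, 2.37, 3.11 and 1.81 CPM in uncoated_IgG. The libraries did not overlap (averaged log2 change -1.26 ± 0.19, SE, edgeR adjusted p = 0.000278). Slc25a27 ranged over 0.464 to 0.793 CPM (median 0.621) on fibronectin and 1.04 to 1.81 CPM (median 1.22) on uncoated dishes without overlap. Slc39a12 ranged over 1.42 to 2.16 CPM (median 1.63) on fibronectin and 2.00 to 4.47 CPM (median 3.03) on uncoated dishes, and the urea transporter gene Slc14a1 over 0.884 to 1.63 CPM (median 1.21) on fibronectin and 0.918 to 2.95 CPM (median 2.00) on uncoated dishes, both with overlap. Slc14a1 (log2 change -0.78, edgeR adjusted p = 0.0366) lost its call in 10 of the 16 fits that left out 1 library.

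Markers of other cells moved with the coating beside these low genes. Mast cell and basophil markers (4 of 8 fell, none at 0 in all libraries) summed to 10.6 to 14.6 CPM in fibronectin_antiITGAV, 16.8 to 21.1 CPM in fibronectin_IgG, 22.7 to 29.6 CPM in uncoated_antiITGAV and 30.2 to 37.1 CPM in uncoated_IgG. B lymphocyte markers (3 of 5 fell, none at 0) summed to 29.5 to 36.6 CPM, 30.9 to 44.3 CPM, 68.9 to 79.5 CPM and 60.4 to 77.7 CPM in the same order of groups. Fibroblast markers (3 of 4 tested fell, Lum at 0 in every library) summed to 5.17 to 8.36 CPM, 7.62 to 8.98 CPM, 10.7 to 13.6 CPM and 12.4 to 15.2 CPM, and neutrophil markers (7 of 12 fell, none at 0) to 246 to 409.7 CPM, 366 to 456 CPM, 361 to 415 CPM and 465 to 503 CPM. Of all tested genes 5.26% fell in this averaged comparison. With IgG 0 of the 12 neutrophil markers fell on fibronectin (1.42% of all tested genes did), and with anti-ITGAV 6 did (2.83%). Some of these markers also fell with the antibody. For anti-ITGAV over IgG averaged over coatings, 4 of 12 neutrophil and 1 of 8 mast cell and basophil markers fell. Of all tested genes 0.0711% were called there. The part of such cells in the transporter changes was not tested.

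Of 23 members known in macrophages, a list drawn up with earlier results of these data known, 9 rose and 1 (Slc29a3) fell, with a median log2 change of 0.21 against 0.00 for all tested genes, of which 6.58% rose and 5.26% fell. Without fibronectin_antiITGAV 3, 12 rose and 2 fell (median 0.29), against 1404 and 1064 of 15765 tested genes. Genes of the SLC superfamily under other names numbered 36, of which 32 were tested, 3 rose and 2 fell (median -0.01). Of all tested genes 6.58% rose and 5.26% fell, and counts this small were not tested against these shares or those of the members. The call of Sfxn2 was kept in 5 and that of Letm1 in 12 of the 16 fits that left out 1 library. Slco4a1, an organic anion transporter, averaged 6.65 ± 2.25 CPM in fibronectin_antiITGAV against 1.58 ± 0.474 CPM in uncoated_antiITGAV, and 6.57 ± 2.23 CPM in fibronectin_IgG against 1.27 ± 0.128 CPM in uncoated_IgG (SD, n = 4 each), a log2 difference of 2.22 ± 0.20 (SE, edgeR adjusted p = 1.93e-06). The mitochondrial genes Letm1 (0.27) and Sfxn2 (0.26) rose, and the organic anion transporter gene Slco2b1 (-0.94) and the lysosomal cystine exporter gene Ctns (-0.32) fell. The chaperone genes Bsg (-0.05) and Emb (-0.19) did not pass (edgeR adjusted p = 0.743 and 0.313).

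The antibody comparison asks what blocking αV integrin does to transporter RNA, and no member passed it. With edgeR 0 of 174 members were called averaged over coatings (0.0711% of all tested genes were), 0 on uncoated dishes (0.0129%), 0 on fibronectin (0.0129%) and 0 for the coating by antibody interaction (0% of all tested genes). At an unadjusted p under 0.05 there were 7, 8, 8 and 8 members in the same order, against 555, 470, 720 and 614 of all 15469 genes. DESeq2 called 1, 0, 0 and 0 members and limma on log2 FPKM 0 in each. Averaged over coatings the members' log2 changes for anti-ITGAV over IgG ran from -0.43 (Slc7a15) to 0.32 (Slc26a1), both genes under 2 CPM and named here after their values were seen. The members' median SE was 0.09 for the averaged comparison and 0.13 on each coating.

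The member with the smallest p for the antibody was Slc23a2 (chromosome 2, 132052496 to 132145108, minus strand), the sodium-dependent vitamin C importer, named after its values were seen. It had 183, 202, 219.6 and 191 CPM in fibronectin_antiITGAV against 165, 167, 177 and 173 CPM in fibronectin_IgG. On uncoated dishes it had 190.2, 184, 190.1 and 189 CPM with anti-ITGAV against 173, 162, 163 and 164 CPM with IgG. All 8 anti-ITGAV libraries were above all 8 IgG ones, which held for no other member and for 0.0323% of all tested genes (5 genes). The averaged log2 difference was 0.21 ± 0.05 (SE, edgeR adjusted p = 0.304). DESeq2 gave an adjusted p of 0.0206 and edgeR with a GC offset 0.0281, while the 16 fits that left out 1 library gave 0.131 to 0.961 and the remaining settings 0.0794 to 1.00.

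**Figure D5:**
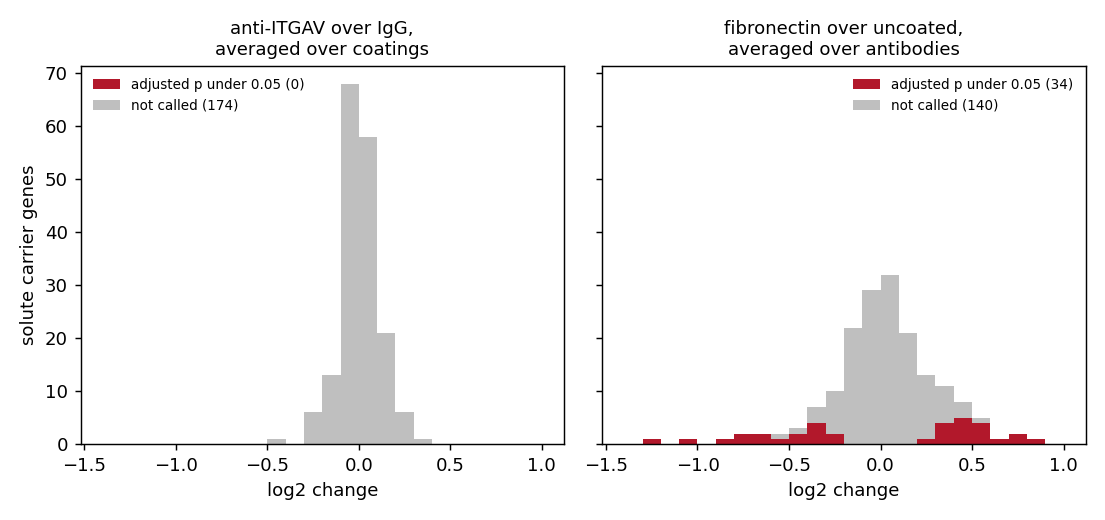
Number of members by log2 change for anti-ITGAV over IgG averaged over coatings (left) and fibronectin over uncoated averaged over antibodies (right), in steps of 0.1. The left distribution is narrower and holds 0 called members, against 34 on the right.

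No member passed the test of whether the effect of the coating differed between the antibodies. The smallest interaction p was that of Slc2a3, which encodes a glucose transporter (edgeR adjusted p = 0.646). It had 17.5, 18.0, 20.0 and 17.9 CPM in fibronectin_antiITGAV against 21.8, 20.6, 20.4 and 18.3 CPM in uncoated_antiITGAV, and 20.0, 22.0, 22.5 and 21.8 CPM in fibronectin_IgG against 15.6, 17.6, 18.5 and 17.7 CPM in uncoated_IgG. Its log2 change on fibronectin was -0.14 with anti-ITGAV and 0.31 with IgG (edgeR adjusted p = 0.379 and 0.0715). Slc37a4, the glucose 6-phosphate carrier of the endoplasmic reticulum, had -0.43 with anti-ITGAV and 0.10 with IgG (edgeR adjusted p = 0.0467 and 0.816, interaction adjusted p = 0.646). Slc5a3, the myo-inositol importer, had 0.89 with anti-ITGAV, a call kept in 11 of the 16 fits that left out 1 library, and 0.12 with IgG (edgeR adjusted p = 0.0366 and 0.894, interaction adjusted p = 0.646).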

How the data were processed

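RNA of 16 libraries, 4 in each group, was analysed from tables the authors deposited: whole-number counts per gene for 54532 genes and FPKM for the same genes. The deposited FPKM equal each count divided by gene length and a constant per library. Per the submitters' processing notes, the tools named are featureCounts, HISAT2 and StringTie, and the builds named are GRCm38.p6 and mm10. Their roles and versions, the strand setting and the handling of shared reads are not stated there. Groups follow the labels.

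Counts were tested with edgeR 4.0.16 in R 4.3.3 (filterByExpr, minimum count 10, which left 15469 genes and all 174 members; TMM; robust quasi-likelihood fit with 1 mean per group), with Benjamini-Hochberg adjustment over all tested genes and a threshold of 0.05. Averaged contrasts are means over the other factor. CPM are TMM-scaled, and a count of 0 allows up to 3 counts. Alternatives used limma 3.58.1 on log2 FPKM (pseudocounts 1 and 0.1) and DESeq2 1.42.0. Figures used Python 3.11.15 and matplotlib 3.10.9. The procedure was tested on simulated counts. Pairs within a group differed by more than sampling noise (chi-square over its degrees of freedom 5.11 to 182), so none was a library deposited again.

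The members and lists were chosen with earlier results of these data known. Members named were the 15 with the highest FPKM, called members (at most 12 in a direction), 23 known in macrophages, those at the count limit and called genes of the superfamily under other names; others are marked. Promoter windows are RefSeq's. Substrate classes were assigned by family from textbook knowledge.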

Additional observations from a re-analysis of the deposited data

Results flagged for a closer look

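In 16 of 224 groups of 4 libraries (56 named members, CPM), the highest or lowest library lay farther from the rest than Dixon's 95% limit; chance gives about 1 group in 20. Of these 16, 7 were in fibronectin_antiITGAV 3, the library with the high mitochondrial share. There Slc9a3r1 had 99.3 CPM (other libraries of the group 159.9 to 170.1), Slc25a39 65.3 (127 to 139.8), Slc25a1 44.2 (67.6 to 69.8) and Slc2a6 10.6 (29.4 to 30.8), all low. In the same library Slc31a1 had 219 CPM (others 159.8 to 166), Slc25a13 103 (69.1 to 73.9) and Slc41a2 63.5 (49.5 to 49.9), all high. In uncoated_IgG 4 Slc9a3r1 had 202 CPM (others 166 to 171) and Slc25a11 126 (115 to 116), both high, and Slc9a7 had 20.7 (32.1 to 34.1), low. Slc36a1 had 136 CPM in uncoated_IgG 3 (others 151 to 152) and Slc2a6 had 27.7 in uncoated_IgG 1 (21.8 to 22.6). In uncoated_antiITGAV 1 Slc25a13 had 57.8 CPM (others 50.4 to 51.6) and Slc12a4 had 46.7 (36.6 to 38.0), and in uncoated_antiITGAV 4 Slc43a2 had 773 (842 to 855). Slc7a2 had 18.7 CPM in fibronectin_antiITGAV 4 (others 21.6 to 21.9). The part of the GC trend or the mitochondrial share in these values was not tested.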

How the results depend on the processing

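For the changes printed in the text, recomputed under each setting, the sign and side of the threshold were kept 2869 times, a call was lost 250 times and gained 74 times, and the sign turned 7 times, each in a change that did not pass. Averaged over antibodies, Slc48a1 became 0.0323 with the GC offset, 0.0300 with the replicate block and GC offset, and -0.0723 to 0.0104 leaving out each library. Bsg became 0.0367 with the GC offset and 0.032 with the block and GC offset. Slc5a3 with IgG became -0.0169 to 0.244 leaving out each library. Members called for fibronectin numbered 34 averaged, 18 with IgG and 23 with anti-ITGAV. They became 62, 42 and 47 with a GC offset, and 61, 39 and 40 with the replicate block and the GC offset together. Calls among all tested genes went from 1831, 586 and 876 to 3391, 1711 and 1943 with the GC offset. With the block and the offset they were 3236, 1505 and 1781. With only the 8 libraries compared, the count with anti-ITGAV was 9 (251 of all tested genes) and that with IgG was 23 (831). For the antibody averaged over coatings, DESeq2 and the GC offset each called 1 member (Slc23a2), against 0. The cause of these moves was not tested. Leaving out each library gave 27 to 47, 11 to 38 and 16 to 29 members for the coating and 0 to 0 for each antibody comparison and the interaction. Of the called members, 27 of 34, 11 of 18 and 7 of 23 kept their call in every setting and every fit without 1 library. Deviations of same-numbered libraries correlated at -0.30 to 0.28, and 4 of 24 pairs passed 0.1. The median was -0.02, against 0.01 for libraries of different numbers. The GC trend of each library also enters these correlations, so they cannot decide whether replicate numbers pair the samples. With the number as a replicate block 29, 14 and 20 members were called for the coating (1519, 360 and 600 of all tested genes) and 0 for the antibody. A GC trend that differs between libraries, the unstated origin of replicates and 28 members under 1 FPKM limit these comparisons.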
